A study of Homo sapiens with 10 samples.

Results

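BIX was compared with its solvent DMSO in t-hESC, a line that the labels give as transformed pluripotent stem cells. The members are the 4 libraries whose titles name t-hESC with BIX or with DMSO, 2 of each, among 10 libraries in the series, and every gene row of the count table was considered. The treated cells received 1 µM of BIX and the controls received DMSO, both for 48 hours. No genetic change separates the groups, and the labels give none beyond the name of the line. Each condition has 2 biological replicates according to the series text, which does not say whether they came from separate passages, so every p-value reflects the variation among these libraries alone. The remaining libraries are t-hESC treated with 10 µM of VXN, a compound given by code name alone, and the colorectal cancer line HT29 with DMSO or VXN.

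The name BIX is used for a G9a and GLP inhibitor, the targets being the enzymes encoded by EHMT2 and EHMT1. These enzymes work as a pair and place methyl groups on lysine 9 of histone H3, and the dimethylated form (H3K9me2) marks wide stretches of silent chromatin. In pluripotent cells the mark is known for its part in closing genes of other cell types and in keeping silent copies of imprinted genes silent. The series title puts the work under drug control of this mark. Only RNA was measured in the files used here, so nothing below speaks to the mark itself.

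Gene counts per library came to 18095537 and 21128261 under DMSO and to 15302336 and 13137026 under BIX, so the treated libraries were the shallower ones. Levels are given as CPM, counts scaled to each library's size, and a gene with a count of 0 could still have stood at 0.141 to 0.220 CPM in these libraries, counting error alone considered. The genes of the drug's targets did not pass the test. EHMT1 stood at 147 and 141 CPM under DMSO and at 143 and 138 CPM under BIX, and EHMT2 at 207 and 204 against 218 and 201 CPM. With the trend on gene length described below removed, EHMT1 was called lower, at a log2 fold change of -0.16 (edgeR adjusted p = 0.0011). The marker genes of pluripotent cells were present in all 4 libraries, with POU5F1, which encodes OCT4, at 1701 and 1672 CPM under DMSO and at 1734 and 1644 CPM under BIX. Exceptions were ZFP42, DNMT3L and FGF4, which did not exceed 0.220, 0.063 and 0.378 CPM. Defining markers of blood cells and trophoblast were at or near 0, and those of fibroblasts were mixed. PTPRC, the pan-leukocyte gene, and FAP, a gene of activated fibroblasts, had no count in any of the 4 libraries, and DCN and LUM did not exceed 0.126 CPM. The fibroblast list was not absent as a whole, since PDGFRB stood at 18.5 and 18.4 CPM under DMSO and at 18.3 and 17.5 CPM under BIX, and POSTN at 2.2 and 1.36 against 2.52 and 2.05 CPM. All 6 defining trophoblast genes stayed at or below 0.13 CPM. The blood and trophoblast lists were not absent as a whole either. LCK of the blood list stood at 69.0 and 68.4 CPM under DMSO and at 59.8 and 60.7 CPM under BIX. KRT8 of the trophoblast list stood at 361 and 371 against 340 and 318 CPM. In these libraries 4 of 21 blood genes and 10 of 25 trophoblast genes had no count at all. The summed level of 17 fibroblast markers, many of which pluripotent cells also express, was 781 and 779 CPM under DMSO and 971 and 929 CPM under BIX. THY1 made up most of this sum, at 585 and 588 against 705 and 679 CPM. COL1A2 and COL5A2 belong both to this list and to the matrix results below. The part of the fibroblast markers in those results was not tested.

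In all, 5199 of 22495 tested genes passed edgeR's quasi-likelihood test at a Benjamini-Hochberg adjusted p under 0.05, and such genes are called here. They are 23.1% of the genes tested, with 2456 higher under BIX (10.9%) and 2743 lower (12.2%), and these shares are the background for the counts below. Most changes were small. Changes of 2-fold or more were called upward for 195 genes (0.867%) and downward for 37 (0.164%). These counts were 46 and 7 by DESeq2, and 80 and 14 with a minimum count of 50. Both libraries of one group lay above both of the other for 12610 genes (56.1%), so a gap between the groups is common in these data. The authors' deposited table called 678 genes. Of the 138 genes named and called here, the authors' deposited table calls 71, does not call 56 and gives 11 no adjusted p. Those not called in the authors' deposited table include VCAN, COL1A2, LAMA5, KDR and NPTX1, with log2 fold changes there of 0.08, 0.03, 0.08, 0.01 and 0.02. The values of these genes here were 0.72, 0.76, 0.79, 0.66 and 0.95. KMT2D, by contrast, was at 1.25 there and 1.27 here. How the deposited fold changes were estimated is unknown, and the reason for the gap was not tested. A value near 0 in that table is therefore not read as an unchanged level. DESeq2 called 3158, and 664 remained called when the test asked for a change of more than 1.2-fold, of which 548 were higher. By size factors of the DESeq2 type 2669 were higher and 2457 lower, which is 52.1% higher beside 47.2% here.

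Chromatin regulators moved in both directions. KMT2D (ENSG00000167548.16, chr12:49018978-49060794, GRCh38.p14) encodes a histone H3 lysine 4 methyltransferase that marks enhancers. It stood at 28.9 and 28.4 CPM under DMSO and at 68.5 and 69.7 CPM under BIX. The groups lay far apart, and the log2 fold change was 1.27 ± 0.062 (SE, n = 2 per group; edgeR adjusted p = 1.0e-25). Its paralog KMT2C went from 19.2 and 16.9 to 32.6 and 35.9 CPM, with near-identical copies elsewhere in the genome that could share reads. KMT2A went from 31.5 and 32.9 to 56.2 and 59.2 CPM. Of 18 tested genes of the H3K4 methyltransferase complexes 8 were higher and 3 lower, with a median log2 fold change of 0.062 beside 0.001 over all genes tested. The lower ones include WDR5, a core subunit that all these complexes share, which fell from 106 and 107 to 85.4 and 86.7 CPM. The other 7 genes of the list were not called. With the gene length trend removed the list gave 8 higher and 2 lower.

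The remodelling enzymes, which slide or exchange nucleosomes with energy from ATP, were mostly higher. Of 24 tested CHD, ISWI and INO80 family genes 14 were higher and 3 lower, with a median log2 fold change of 0.177. With the gene length trend removed 12 were higher and 5 lower, at a median of 0.126. EP400, the motor of a complex that deposits the variant histone H2A.Z, went from 68.0 and 66.8 to 115 and 108 CPM, a log2 fold change of 0.73 ± 0.05 (SE). SRCAP, its relative with the same task, rose by 0.62 ± 0.06 and CHD7, which binds enhancers, by 0.44 ± 0.04. ATRX, which works at telomeres and silent repeats, rose by 0.37 ± 0.05. SMARCA5, the ISWI motor, fell from 358 and 354 to 322 and 301 CPM. In the SWI/SNF complex 6 of 26 genes were higher and 6 lower, and 4 and 8 with the gene length trend removed. ARID1A, the large DNA-binding subunit, went from 116 and 121 to 185 and 186 CPM. The small subunits SMARCB1 and ACTL6A fell by 0.20 and 0.30 on the log2 scale.

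Histone acetyltransferases gave 7 higher genes and 1 lower among 23 tested with the bromodomain readers. These counts were the same with the gene length trend removed. EP300, a coactivator found at active enhancers, went from 76.9 and 79.2 to 123 and 136 CPM, and its paralog CREBBP from 46.8 and 46.1 to 69.7 and 71.9 CPM. TRRAP, the large scaffold that brings acetyltransferases to promoters, rose by 0.74 ± 0.05 (SE). HAT1, which acetylates newly made histone H4, was the gene that fell, from 69.3 and 65.4 to 51.3 and 50.7 CPM. Genes of the deacetylase complexes were split, 8 higher and 8 lower of 27, and without a library of BIX (either replicate) or DMSO replicate 2 the higher count was 5. With the gene length trend removed 5 genes of the deacetylase complexes were higher and 9 lower. The catalytic subunit genes HDAC1, HDAC2 and HDAC3 fell by 0.15, 0.18 and 0.19.

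Of 22 genes for enzymes of H3K36, H3K79 and other methylation sites 13 were higher and 2 lower, at a median log2 fold change of 0.221. ASH1L, an H3K36 methyltransferase, went from 20.8 and 20.6 to 31.8 and 35.7 CPM. NSD1, another H3K36 enzyme, rose by 0.51 ± 0.05 (SE), DOT1L, the H3K79 enzyme, by 0.44 ± 0.05 and KDM6B, which removes methyl groups from H3K27, by 0.55 ± 0.08. The lower genes were the arginine methyltransferases PRMT1 and PRMT5, and PRMT1 went from 502 and 510 to 424 and 406 CPM. With the gene length trend removed the list gave 12 higher and 4 lower, at a median of 0.154. Polycomb genes, which place and read H3K27 methylation and ubiquitin on H2A, gave 5 higher and 3 lower of 31. Those counts ranged from 2 to 4 and from 1 to 2 with a library left out, without DMSO replicate 2 at the lowest for the higher genes and without BIX replicate 2 at the lowest for the lower ones. EZH2, the Polycomb methyltransferase, fell from 74.9 and 73.1 to 56.2 and 57.9 CPM. Among 28 genes of H3K9 methylation 9 were higher and 7 lower, and the lower count was 3 without DMSO replicate 2, 4 without DMSO replicate 1 or BIX replicate 1, and 2 by DESeq2. None of the H3K9 genes passed the 1.2-fold threshold, and their log2 fold changes lay between -0.38 and 0.34. With the gene length trend removed 7 of them were higher and 6 lower. TET3, which oxidizes methylated cytosine, rose by 0.55 ± 0.08.

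**Figure D1:**
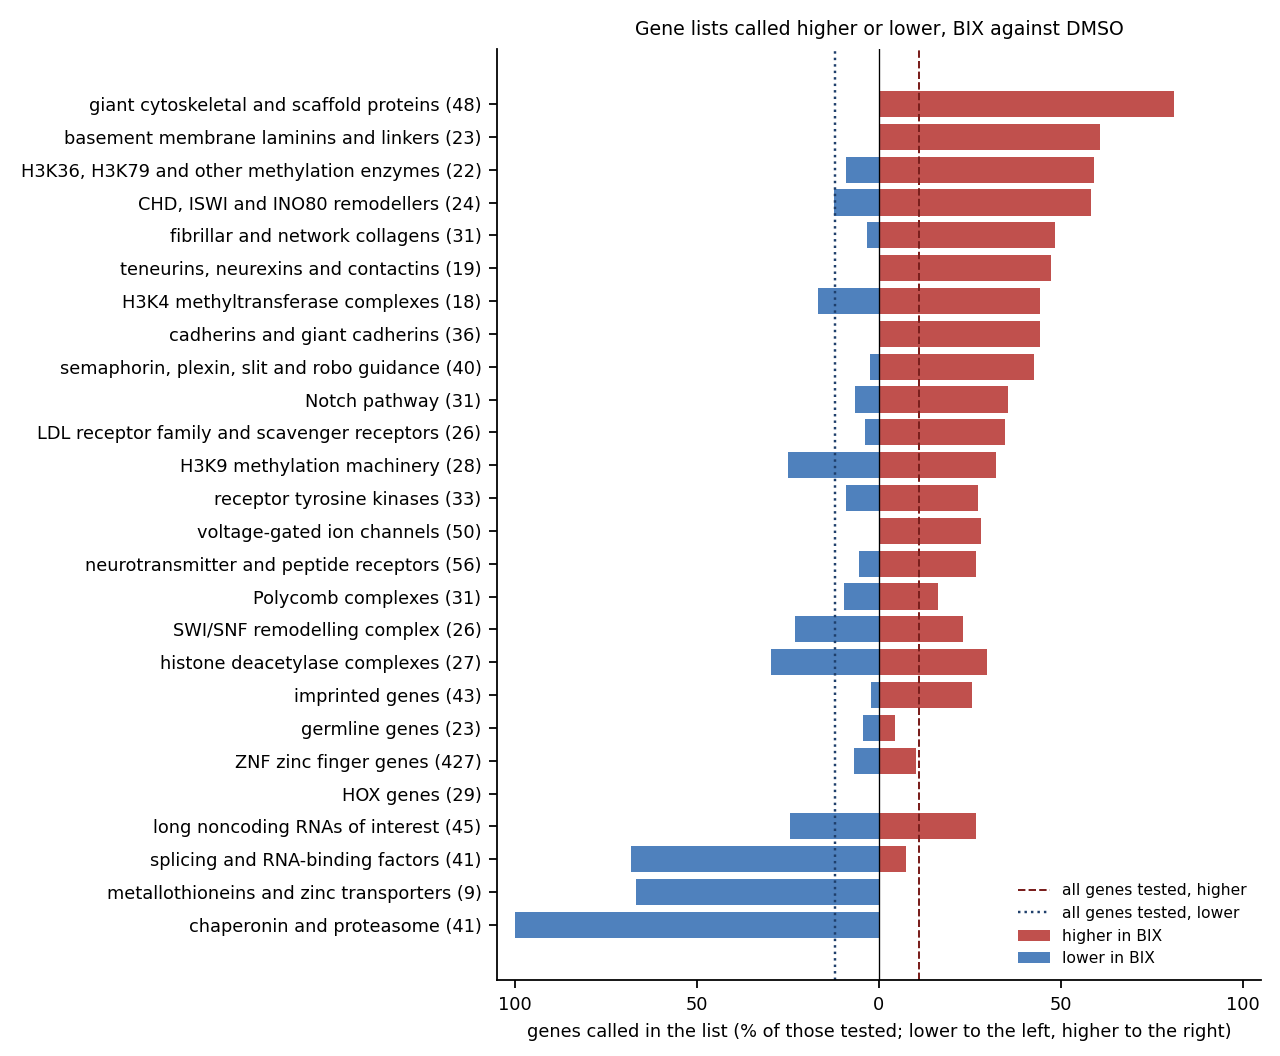
Share of tested genes called higher (bars to the right, %) or lower (bars to the left, %) under BIX in 26 of 57 gene lists. The number tested is in parentheses, and no rule set which lists are shown. Dashed and dotted lines mark the shares over all genes tested, 10.9% higher and 12.2% lower. The giant cytoskeletal and scaffold list reaches 81.2% higher, and the chaperonin and proteasome list 100% lower.

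Among single genes that averaged 4 CPM or more, the largest log2 fold change upward was that of PLA2G2A, which encodes a secreted phospholipase. It stood at 4.39 and 3.81 CPM under DMSO and at 15.9 and 19.2 CPM under BIX, 4.28-fold higher. MBNL3, a regulator of splicing, went from 7.63 and 7.20 to 17.3 and 15.5 CPM, and ARFGEF3 from 17.7 and 16.6 to 36.5 and 36 CPM. ESRRB, a nuclear receptor of the naive pluripotent state, went from 4.67 and 4.66 to 10.96 and 9.97 CPM. The T cell adhesion gene CD2 was at 4.78 and 5.36 CPM under DMSO and at 10.4 and 12.7 CPM under BIX, while the T cell receptor genes CD3D, CD3E and CD3G did not exceed 0.315 CPM in any of these libraries. RNF213, a very large ubiquitin ligase gene, went from 37.9 and 41.0 to 84.9 and 82.8 CPM. Its antisense partner RNF213-AS1 was also called higher, and since the library kit does not mark strand, reads of the pair cannot be told apart.

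Downward, AJAP1, which encodes a protein of cell junctions, went from 17.1 and 18.4 to 10.8 and 9.24 CPM. PKDCC, a secreted kinase gene, went from 99.4 and 99.2 to 63.8 and 61.1 CPM, a log2 fold change of -0.67 ± 0.048 (SE; edgeR adjusted p = 4.1e-18). PPP1R1B, a phosphatase inhibitor known from dopamine signalling, stood at 12.8 and 12.5 CPM against 6.87 and 7.62 CPM. CORO1A, an actin regulator best known in leukocytes, went from 8.89 and 8.70 to 4.66 and 4.55 CPM, and it overlaps CORO1A-AS1. SLC38A5, a glutamine transporter, BTBD17 and SCN4B, a sodium channel subunit, fell by 0.72, 0.72 and 0.82. In each of these genes both treated libraries lay below both controls, which the rule for naming them required.

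**Figure D2:**
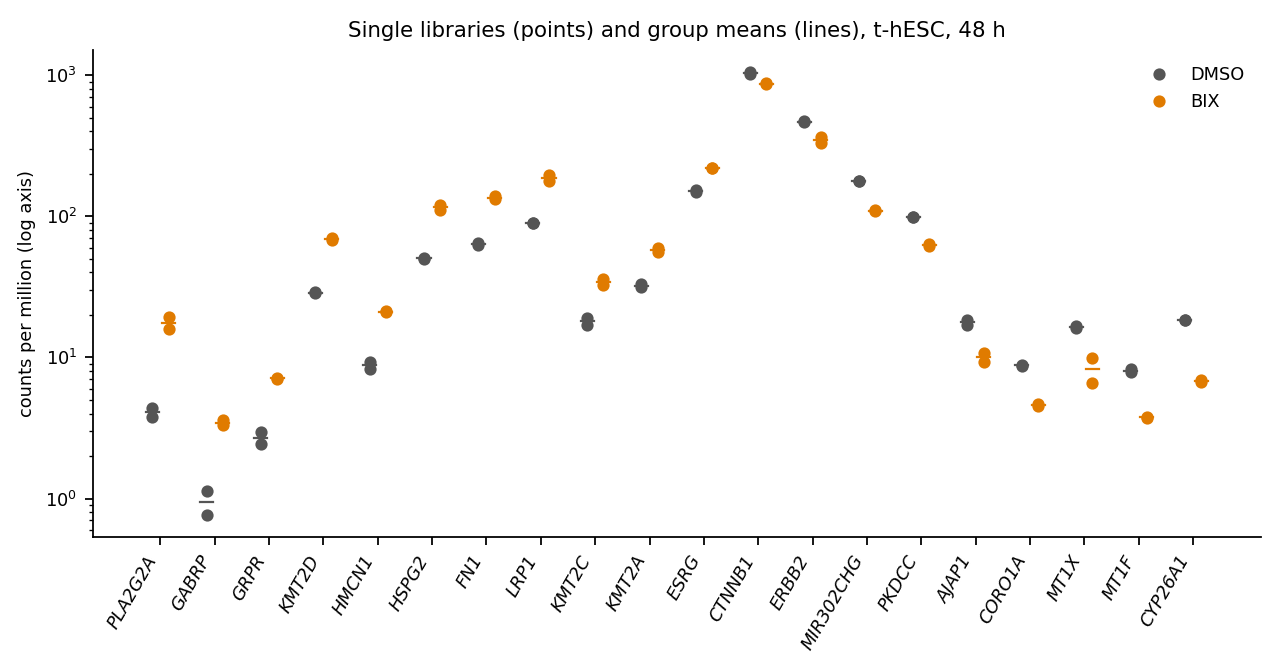
Levels of 20 genes in CPM (log axis) in the 2 DMSO and 2 BIX libraries of t-hESC, each point a library and each line a group mean. PLA2G2A lies highest above its controls among the genes at the left, and CYP26A1 lies furthest below at the right. The groups do not overlap in any gene shown, which the naming rule required of the genes with the largest changes. Such a gap was seen in 56.1% of all genes tested.

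The extracellular matrix, the scaffold outside the cell, includes the basement membrane, the sheet on which epithelia sit. Of 23 tested genes of laminins and their linkers 14 were higher and none lower, with a median log2 fold change of 0.327 and 10 higher by DESeq2. With the gene length trend removed 12 were higher and none lower, at a median of 0.282. HSPG2, which encodes perlecan, a proteoglycan that ties laminin to collagen IV, went from 49.9 and 50.8 to 121 and 111 CPM. HMCN1, a giant linker between tissues, went from 8.35 and 9.32 to 21.2 and 21.0 CPM. FRAS1 and FREM2, partners that anchor the skin to its base, went from 44.6 and 45.1 to 83.2 and 80.4 CPM and from 31.4 and 32.9 to 52.5 and 57.5 CPM. Laminin chains rose by smaller steps, LAMA5 by 0.79 ± 0.05 (SE), LAMA1 by 0.48 ± 0.04 and LAMC1 by 0.36 ± 0.04. The laminin linker gene NID1 rose by 0.53 ± 0.05.

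Of 31 tested collagen genes 15 were higher and 1 lower, and the higher count was 10 without BIX replicate 1. With the gene length trend removed 11 collagen genes were higher and 2 lower, at a median log2 fold change of 0.182 beside 0.218. COL5A2 went from 43.2 and 40.3 to 68.0 and 67.1 CPM and COL1A2 from 43.2 and 39.3 to 71.7 and 67.6 CPM, both of them chains of fibril-forming collagens. P4HA1 and PLOD2, enzymes that hydroxylate collagen chains, rose by 0.47 ± 0.06 and 0.45 ± 0.07 (SE). Among 39 matrix glycoproteins and proteoglycans 13 were higher and 3 lower. With the gene length trend removed these counts were 11 and 3, and the median log2 fold change was 0.038 beside 0.105. FN1, which encodes fibronectin, went from 65.2 and 62.7 to 132 and 139 CPM. VCAN, a proteoglycan that binds hyaluronan, went from 161 and 164 to 266 and 268 CPM, and the fibrillin gene FBN2 from 83.4 and 91.1 to 139 and 137 CPM. GPC3, a membrane-bound heparan sulfate proteoglycan, fell from 342 and 341 to 294 and 285 CPM. Of 18 integrin genes, the receptors for these proteins, 5 were higher (27.8%) and none lower, with a median log2 fold change of 0.177 and ITGB1 at a log2 fold change of 0.14 ± 0.03.

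Of 36 tested cadherin family genes 16 were higher and none lower, at a median log2 fold change of 0.286. With the gene length trend removed 13 were higher and 3 lower, at a median of 0.143, and DESeq2 gave 12 higher. The atypical cadherins that set tissue polarity led them. FAT1 went from 89.1 and 87.7 to 152 and 158 CPM, FAT3 from 26.0 and 27.5 to 56.3 and 53.2 CPM and CELSR2 from 49.3 and 53.5 to 94.1 and 89.5 CPM. FAT4 was 2.21-fold higher at a lower level, 2.86 and 2.49 CPM against 5.67 and 6.16 CPM. Among teneurins, neurexins and contactins, adhesion proteins of neural tissue, 9 of 19 were higher and none lower, but 4 by DESeq2 and 5 with the gene length trend removed. TENM4 rose by 0.66 ± 0.10 (SE) and stayed at 0.45 with that trend removed. Of 40 genes of semaphorin, plexin, slit and robo guidance 17 were higher and 1 lower, and 11 and 2 with the length trend removed. SEMA6A went from 244 and 245 to 335 and 347 CPM and its relative SEMA6D fell from 12.5 and 13.4 to 8.06 and 8.36 CPM. For ROBO1, a slit receptor, the log2 fold change of 0.22 ± 0.04 became -0.023 (edgeR adjusted p = 0.763) with the trend removed.

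Receptors of secreted signals gave mixed counts. Of 33 tested receptor tyrosine kinases 9 were higher and 3 lower. With the gene length trend removed 7 were higher and 2 lower, and the median log2 fold change was 0.003 beside 0.051. IGF1R, the insulin-like growth factor receptor, went from 74.8 and 68.7 to 114 and 113 CPM, and KDR, a receptor for vascular endothelial growth factor, from 97.9 and 92.2 to 146 and 155 CPM. ERBB2 went the other way, from 467 and 473 to 364 and 334 CPM. In the LDL receptor family 9 of 26 were higher and 1 lower. With the gene length trend removed these counts were 9 and 2, and the median log2 fold change was 0.074 beside 0.171. LRP1, a large endocytic receptor, went from 89.4 and 90.0 to 195 and 178 CPM, a log2 fold change of 1.06 ± 0.04 (SE), and SORL1 rose by 0.70 ± 0.07. IGF2R, which clears insulin-like growth factor 2 and is imprinted in mice, went from 115 and 119 to 186 and 183 CPM.

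Receptors for neurotransmitters and peptides were low but included some of the larger folds. GABRP, a GABA receptor subunit, went from 0.769 and 1.13 to 3.59 and 3.30 CPM, 3.57-fold higher. GRPR, the receptor for gastrin-releasing peptide, stood at 2.42 and 2.96 CPM against 7.18 and 7.04 CPM, and the serotonin receptor gene HTR2C at 2.64 and 2.26 CPM against 7.18 and 5.79 CPM. EDNRB, an endothelin receptor of the neural crest, went from 7.80 and 10.1 to 16.8 and 16.9 CPM. Over the list 15 of 56 were higher and 3 lower, with 8 higher without BIX replicate 2 and 9 by DESeq2. Of 50 voltage-gated channel genes 14 were higher and none lower, and 8 by DESeq2. With the gene length trend removed the channel list gave 11 higher and 1 lower, and the receptor list 13 and 3. SCN8A, a sodium channel gene, went from 21.1 and 20.9 to 31.6 and 34.9 CPM.

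In the Notch pathway, where neighbouring cells signal through membrane-bound ligands, 11 of 31 tested genes were higher and 2 lower. The receptor genes NOTCH1, NOTCH2 and NOTCH3 rose by 0.58 ± 0.05, 0.69 ± 0.05 and 0.51 ± 0.04 (SE), and the ligand gene JAG1 by 0.51 ± 0.05. NOTCH2 stood at 53.4 and 55.5 CPM under DMSO and at 88.2 and 87.7 CPM under BIX. Of its target genes, HEY2 went from 11.3 and 12.1 to 19.5 and 19.4 CPM, while HES1 fell from 33.8 and 30.9 to 25.5 and 24.4 CPM. Among 47 Wnt genes 13 were higher and 5 lower, the lower count being 2 without BIX replicate 2 and by DESeq2, and 3 without BIX replicate 1 or DMSO replicate 1. The ligand gene WNT8A went from 1.15 and 0.753 to 2.65 and 3.30 CPM, and CTNNB1, the beta-catenin gene, fell from 1028 and 1050 to 874 and 861 CPM. Nodal, TGF-beta and BMP genes gave 11 higher and 2 lower of 49, and 7 higher by DESeq2. LEFTY1, a Nodal antagonist, went from 2.47 and 2.54 to 6.11 and 5.43 CPM. ID3, a target of BMP signals, fell from 95.6 and 99.2 to 70.8 and 68.9 CPM.

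Retinoic acid, made from vitamin A, is a strong differentiation signal for pluripotent cells, and CYP26A1 encodes the enzyme that breaks it down. The gene itself is a known target of the retinoic acid receptors, which bind repeats of a short motif with a spacer of 5 bases, called DR5. RefSeq lists 2 start sites for CYP26A1, and of the windows of 250 bases before and 50 after each start only that of the downstream start holds the motif. It is shown because CYP26A1 had the largest fall among called genes that averaged 4 CPM or more, with the motif in capitals, 90 to 74 bases before the start (chr10:93073643-93073942, plus strand, GRCh38.p14).
CYP26A1 promoter: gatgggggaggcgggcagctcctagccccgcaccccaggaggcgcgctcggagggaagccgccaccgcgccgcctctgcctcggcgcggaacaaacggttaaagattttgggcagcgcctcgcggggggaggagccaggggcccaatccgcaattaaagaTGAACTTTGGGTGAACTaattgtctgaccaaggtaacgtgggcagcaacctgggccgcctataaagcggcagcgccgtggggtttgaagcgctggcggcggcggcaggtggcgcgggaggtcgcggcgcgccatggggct
Read on the opposite strand, the motif is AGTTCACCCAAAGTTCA. Over both strands of 35116 RefSeq promoter windows 31 hold a DR5 motif (0.0883%). CYP26A1 fell from 18.5 and 18.5 to 6.93 and 6.75 CPM, a log2 fold change of -1.43 ± 0.12 (SE; edgeR adjusted p = 7.8e-16). Of the 13 tested genes with the motif in a window 2 were higher, PHF8 and ATXN1L, and CYP26A1 was lower. The call of ATXN1L was lost without BIX replicate 1 (log2 fold change 0.19) and without DMSO replicate 2 (0.17). A match describes the letters of the window and is not a site shown to be bound. Of 20 retinoic acid pathway genes 4 were higher and 2 lower. LRAT, which stores retinol as esters, rose by 0.62 ± 0.08, and the binding protein gene CRABP1 fell by 0.20 ± 0.04.

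Metallothioneins are small proteins that bind zinc and copper, and their genes lie side by side on chromosome 16. All 6 that were tested fell, and the 3 tested genes of zinc transport and sensing were not called. MT1X went from 16.2 and 16.8 to 9.83 and 6.598 CPM, MT2A from 13.7 and 15.3 to 8.88 and 6.89 CPM and MT1F from 8.24 and 7.86 to 3.78 and 3.74 CPM. MT1E fell most, from 3.95 and 4.38 to 0.756 and 0.587 CPM. How reads were split among these near-identical copies is uncertain. The promoters of 2 of them are shown with the metal response motifs TGCACNC and TGCGCNC in capitals on either strand (GRCh38.p14, plus strand, MT2A at chr16:56608334-56608633 and MT1X at chr16:56682220-56682519).
MT2A promoter: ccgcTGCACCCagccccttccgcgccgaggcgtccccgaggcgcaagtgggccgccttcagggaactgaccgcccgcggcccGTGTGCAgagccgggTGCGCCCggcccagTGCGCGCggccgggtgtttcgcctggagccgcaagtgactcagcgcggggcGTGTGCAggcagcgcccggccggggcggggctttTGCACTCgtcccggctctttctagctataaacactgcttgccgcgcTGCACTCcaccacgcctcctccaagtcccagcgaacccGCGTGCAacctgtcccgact
MT1X promoter: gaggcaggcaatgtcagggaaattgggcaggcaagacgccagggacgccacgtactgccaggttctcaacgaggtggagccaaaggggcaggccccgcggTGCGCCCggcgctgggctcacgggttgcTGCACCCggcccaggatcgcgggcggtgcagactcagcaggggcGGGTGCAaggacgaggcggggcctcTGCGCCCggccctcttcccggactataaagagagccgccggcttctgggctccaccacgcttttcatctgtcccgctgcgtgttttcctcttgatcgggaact
MT2A holds 8 matches and MT1X 4. Each motif is common, TGCACNC being in 4238 and TGCGCNC in 7012 of 35116 windows, and 29.6% hold at least 1 of the pair.

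The widest rise by share of a list was among giant cytoskeletal and scaffold proteins, with 39 of 48 tested genes higher and none lower, at a median log2 fold change of 0.52. DYNC1H1, the heavy chain of the dynein motor, went from 218 and 219 to 370 and 368 CPM. MACF1, which links actin to microtubules, went from 104 and 104 to 180 and 189 CPM, and the ubiquitin ligase genes HUWE1 and UBR4 from 173 and 176 to 296 and 322 CPM and from 97.5 and 101 to 166 and 174 CPM. UTRN, the relative of dystrophin, went from 27.6 and 26.6 to 49.5 and 49.9 CPM. FLNA, which encodes the actin linker filamin A, moved less, from 972 and 1006 to 1232 and 1151 CPM. Leaving out a library gave 35 to 39 higher, and 25 passed the 1.2-fold threshold.

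These proteins come from long genes, and the change under BIX followed gene length on the genome across all protein-coding genes. Under 5 kb, 5.7% of 1443 genes were higher and 22.5% lower. At 320 kb or more, 30.8% of 607 were higher and 3.1% lower. The median log2 fold change went from -0.068 in the shortest class to 0.174 in the longest. Under VXN, against the same DMSO libraries, the medians of these classes were 0.053 and 0.059. Between them the VXN median dipped, to -0.029 at 40 to 80 kb, and rose from there with length. With a smooth trend on gene length removed, 35 of the 48 giant protein genes were still higher and none lower. The log2 fold changes of KMT2D, HSPG2, FN1 and LRP1 were then 1.27, 1.13, 1.04 and 1.01. These genes lie in the classes of 40 to 80 and 80 to 160 kb, with medians of 0.0 and 0.073, so the correction had little to remove. Longer genes moved more, FRAS1 from 0.87 to 0.685, FAT3 from 1.03 to 0.83 and UTRN from 0.88 to 0.683. In that fit DMD, the longest gene of the list, was at 0.01 beside 0.30 ± 0.08 (SE) without the correction, a call that was also lost by DESeq2 and without BIX replicate 2 (log2 fold change 0.18). Length on the genome moves with mRNA length, intron content and expression, and their parts were not tested.

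**Figure D3:**
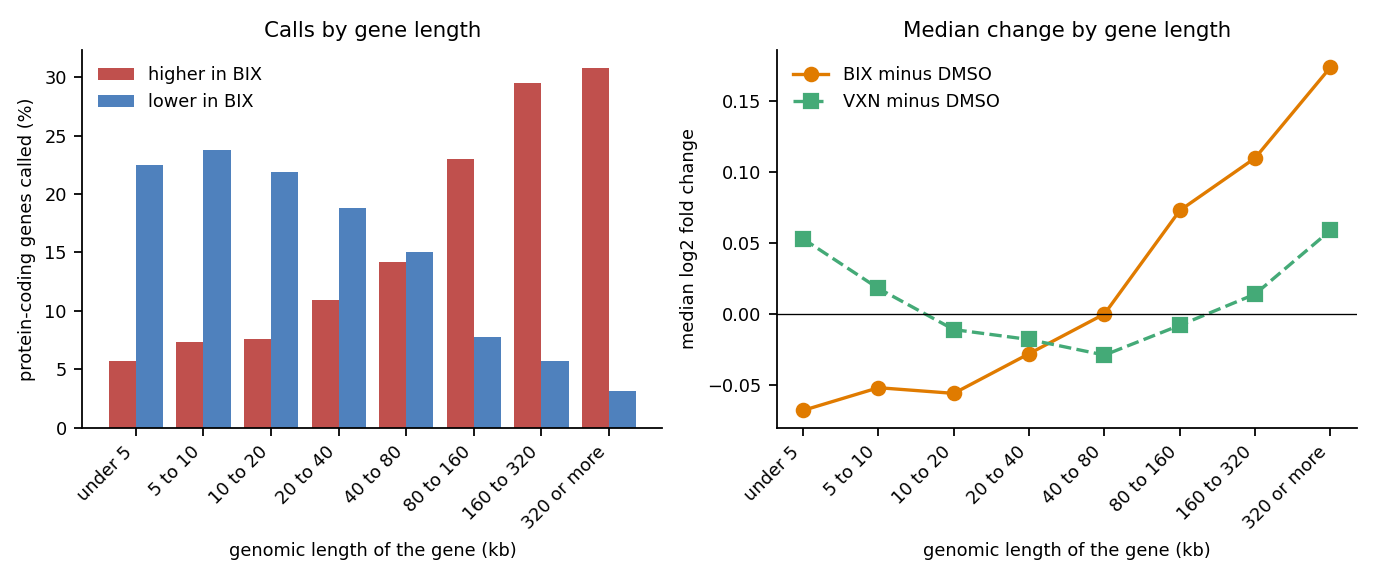
Protein-coding genes grouped by genomic length in kb. Left, the share called higher or lower under BIX (%): higher calls go from 5.7% to 30.8% and lower calls from 22.5% to 3.1% between the shortest and the longest class. Right, the median log2 fold change of each class under BIX (-0.068 to 0.174) and under VXN (0.053 and 0.059 at the ends, -0.029 at 40 to 80 kb).

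All 41 tested genes of the chaperonin and the proteasome were lower, with a median log2 fold change of -0.269 and a range from -0.39 to -0.12. The chaperonin folds actin and tubulin, and its subunit genes CCT2 and CCT3 went from 388 and 389 to 292 and 301 CPM and from 610 and 617 to 479 and 499 CPM. Of the proteasome, which degrades tagged proteins, PSMD14 went from 144 and 150 to 117 and 115 CPM and PSMC6 from 96.6 and 96.2 to 71.2 and 78.0 CPM. The falls were small, and 2 of 41 passed the 1.2-fold threshold. Other lists of folding and turnover did not share this count. Endoplasmic reticulum chaperones and unfolded protein response genes gave 4 higher and 6 lower of 29, the lower count being 2 by DESeq2 and without DMSO replicate 1. Autophagy and lysosome genes gave 9 higher and 3 lower of 43, with 5 higher without DMSO replicate 1. Many of these genes have processed pseudogenes that could share reads.

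Splicing and RNA-binding factors were lower in 28 of 41 cases and higher in 3, at a median log2 fold change of -0.171. Most of these changes were small, and 3 lower and 1 higher passed the 1.2-fold threshold. HNRNPM, a splicing repressor, went from 396 and 405 to 300 and 271 CPM, and SRSF7 and U2AF2, which bind exons and the end of introns, fell by 0.40 ± 0.03 and 0.36 ± 0.04 (SE). The genes that rose were SRRM2, SON and DDX17. SRRM2 and SON encode large scaffolds of nuclear speckles, the bodies where splicing factors gather. SRRM2 went from 430 and 425 to 661 and 665 CPM, a log2 fold change of 0.63 ± 0.03, and SON and DDX17 rose by 0.24 and 0.20. The other 10 genes of the list were not called.

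Long noncoding RNA genes were called less often than protein-coding genes but contributed many of the larger rises. Of 4675 tested 272 were higher (5.8%) and 146 lower (3.1%), and 81 and 9 of these were at 2-fold or more. The corresponding protein-coding counts were 2104 and 2543 of 15640, with 93 and 17 at 2-fold or more. Levels of many of these genes were low. ESRG, a transcript of human pluripotent cells, went from 155 and 150 to 219 and 221 CPM, and LINC00678, also known from such cells, from 21.0 and 21.8 to 37.1 and 38.1 CPM. MIAT went from 99.97 and 102.6 to 171.2 and 171.2 CPM, and LINC02506 from 0.933 and 0.847 to 3.40 and 2.35 CPM. MALAT1, the speckle RNA, rose by 0.52 ± 0.07 (SE) and NORAD, which binds Pumilio proteins, by 0.24 ± 0.04. Some host genes of small nucleolar RNAs, named after their values were seen, were lower, while the host SNHG14 was higher. SNHG1 fell from 145 and 149 to 120 and 115 CPM, SNHG12 from 15.3 and 15.8 to 10.3 and 10.7 CPM, and SNHG5 and DANCR by 0.24 and 0.20 on the log2 scale. ZBTB37, which overlaps the snoRNA host GAS5, rose by 1.13 ± 0.13.

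MIR302CHG, the host transcript of the miR-302 cluster (chr4:112646720-112650051, GRCh38.p14), fell from 178 and 178 to 108 and 111 CPM, a log2 fold change of -0.70 ± 0.04 (SE; edgeR adjusted p = 2.2e-21). The cluster is among the most active microRNA genes of human pluripotent cells. Its members are shown because 4 of the 10 mature microRNAs within the host share a seed, the bases 2 to 8 that choose targets, given here in capitals from RefSeq.
hsa-miR-302a-3p: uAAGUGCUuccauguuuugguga
hsa-miR-302b-3p: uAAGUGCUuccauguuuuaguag
hsa-miR-302c-3p: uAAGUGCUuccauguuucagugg
hsa-miR-302d-3p: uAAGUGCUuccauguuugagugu
hsa-miR-367-3p: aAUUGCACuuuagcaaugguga
The first 4 carry the seed AAGUGCU and differ near the 3′ end, while miR-367-3p has a seed of its own. The libraries measure the host and not the mature microRNAs. MIR302CHG lies within LARP7, which also fell, from 287 and 278 to 190 and 210 CPM, and without strand the reads of the pair cannot be told apart.

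Gene classes often tied to H3K9 methylation differed in their counts. Of 43 tested imprinted genes 11 were higher and 1 lower, shares of 25.6% and 2.3% beside 10.9% and 12.2% over all genes tested. PWAR5, a noncoding transcript of the Prader-Willi region, went from 4.17 and 3.01 to 9.89 and 8.504 CPM, within the span of SNHG14, which rose by 0.31 ± 0.03 (SE) and by 0.11 with the length trend removed. PEG10, a gene derived from a retrotransposon, went from 230 and 229 to 299 and 310 CPM, and MEST fell by 0.24. Among 23 tested germline genes 1 was higher and 1 lower. None of 29 tested HOX genes was called. Clustered protocadherins gave 4 higher and none lower of 48 (none by DESeq2), and ZNF zinc finger genes 43 higher and 29 lower of 427, shares of 10.1% and 6.8% that do not exceed the background. The ZNF counts were 26 to 32 and 14 to 18 with a library left out, lowest without BIX replicate 2. Interferon-stimulated genes gave 9 higher and none lower of 43, but 4 higher without DMSO replicate 1 or BIX replicate 1. TRIM22 was the clearest, from 67.9 and 65.3 to 92.4 and 94.9 CPM.

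Pluripotency genes moved by small amounts in both directions. Of 25 tested core genes 10 were higher and 5 lower, with 5 higher without DMSO replicate 2. LIN28A, which blocks let-7 microRNAs, fell from 1055 and 1047 to 890 and 890 CPM, and OTX2, a factor of the primed state and early neural fate, from 73.7 and 81.3 to 50.8 and 57.7 CPM. SOX2 went from 281 and 269 to 306 and 303 CPM and NANOG from 53.2 and 51.1 to 59.6 and 61.9 CPM. Both calls were lost without DMSO replicate 2, with edgeR adjusted p of 0.0954 and 0.0751. Ectoderm and neural genes gave 5 higher and 5 lower of 29, counts that became 1 and 4 without DMSO replicate 2 and 2 and 3 without BIX replicate 2. NPTX1, a neuronal pentraxin, was among the higher ones. Mesoderm and endoderm genes gave 5 higher and none lower of 29, and 2 higher without BIX replicate 2 or DMSO replicate 2.

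Calls were spread over the chromosomes. Chromosome X had the largest share of higher genes, 17.2% of 698, with 10.6% lower. Chromosome 19 had the smallest share of higher genes among the autosomes and X, 8.7% of 1243, with 15.7% lower. The largest share of lower genes was on chromosome 16, 18.1% of 801. Over all genes tested, including those without a known position, the shares were 10.9% higher and 12.2% lower.

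Set beside VXN, many changes under BIX differed in size or in sign. The compounds share their DMSO controls and were used at different doses, 1 µM for BIX and 10 µM for VXN, so compound and dose cannot be told apart. Tested directly between the treated groups, 5110 genes were called (22.7%), 2510 higher under BIX (11.2%) and 2600 lower (11.6%). Matrix genes were among those higher under BIX. VCAN stood at 266 and 268 CPM under BIX and at 154 and 160 under VXN, beside 161 and 164 under DMSO. FN1 was at 132 and 139 CPM under BIX and at 74.9 and 78.98 under VXN. COL5A2 differed in sign, with log2 fold changes against DMSO of 0.70 ± 0.06 under BIX and -0.40 ± 0.07 under VXN (SE), and 1.09 ± 0.06 between them (edgeR adjusted p = 8.9e-23). By the direct test 14 of 23 basement membrane genes and 36 of 48 giant protein genes were higher under BIX, and 0 and 1 were lower.

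Other named genes differed in sign between the compounds, and others did not. LIN28A had log2 fold changes of -0.24 under both, and MIR302CHG of -0.70 under BIX and -0.41 under VXN. ESRG stood at 219 and 221 CPM under BIX and at 117 and 119 under VXN, and LINC00678 at 37.1 and 38.1 against 17.1 and 16.7 CPM. NPTX1 was at 15.5 and 15.1 CPM under DMSO, at 28.9 and 30.5 under BIX and at 1.37 and 1.41 under VXN. In reverse, AJAP1, PKDCC, SEMA6D and HES1 were lower under BIX and higher under VXN than under DMSO, and AJAP1 was at 10.8 and 9.24 CPM under BIX and at 25.6 and 26.3 under VXN. GABRP was at 0.956 and 0.677 CPM under VXN, close to its DMSO level, and differed from BIX by 2.08 ± 0.27 on the log2 scale (edgeR adjusted p = 1.0e-08). Some genes were not distinguished. KDR had log2 fold changes of 0.66 ± 0.04 under BIX and 0.65 ± 0.04 under VXN, with a difference of 0.01 ± 0.04 (edgeR adjusted p = 0.928), and MIAT 0.76 ± 0.04 and 0.82 ± 0.04. None of the 9 tested metallothionein and zinc genes differed by the direct test. KMT2D, higher under both, was higher by 0.48 ± 0.06 under BIX than under VXN.

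**Figure D4:**
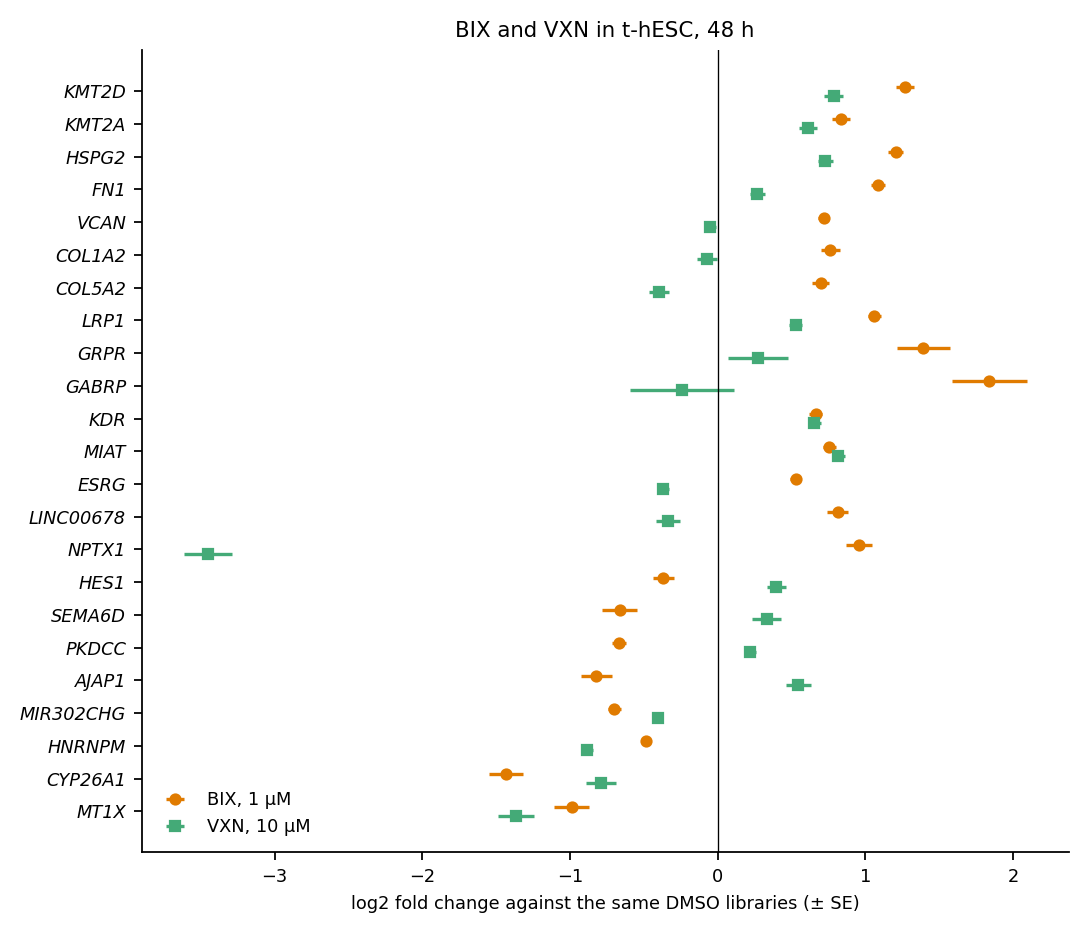
Log2 fold changes of 23 genes in t-hESC under 1 µM of BIX (circles) and 10 µM of VXN (squares), each against the same DMSO libraries, with bars of 1 SE. The symbols lie on opposite sides of 0 for COL5A2, ESRG, LINC00678, NPTX1, HES1, SEMA6D, PKDCC and AJAP1, and nearly together for KDR and MIAT. The symbols of VCAN, COL1A2 and GABRP are also on opposite sides of 0, but their VXN values of -0.05, -0.07 and -0.24 were not called.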

How the data were processed

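RNA of the 10 libraries was prepared with a TruSeq RNA v2 kit from total RNA, per the labels' protocols. The treatment label reads DMSO for every sample, so groups came from the titles. Tools listed without roles in the submitters' processing notes are STAR, fastp 0.20.1, DESeq2 1.34.0 and FastQC 0.11.9, with GRCh38/hg38 as build. The read counter was not given in the sources used here. The same holds for the annotation, and how reads of overlapping or near-identical genes were divided is unknown. The authors deposited raw counts for 60651 genes, and 1181 repeat rows were left out. A further 4 columns match no sample and were not used. Of 678 calls in the authors' deposited table of log2 fold changes and adjusted p-values, 677 were called here in the same direction, while many genes called here were not called there.

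Counts were fitted over all 10 libraries with edgeR 4.0.16 in R 4.3.3 (TMM, filterByExpr with a minimum count of 10, robust quasi-likelihood F test, Benjamini-Hochberg adjustment). The fitting code was tested on simulated data. The members and the gene lists were chosen with earlier results of these data known, and lists are described by counts and medians with no test. By rule, names went to the called genes with the largest changes in each direction (averaging 4 CPM, or 1 CPM for lncRNA genes, groups not overlapping), to at most 5 genes per list in order of p, and to EHMT1, EHMT2, POU5F1, NANOG and SOX2; the text gives a selection of these. Outside the rule, and chosen after their values were seen, are ATRX, ATXN1L, CORO1A-AS1, DANCR, DDX17, DMD, DNMT3L, FGF4, FLNA, GAS5, GPC3, HDAC1, HES1, KDM6B, LAMC1, LARP7, MALAT1, MEST, NID1, NORAD, PHF8, PRMT5, PSMC6, PSMD14, ROBO1, SMARCA5, SNHG1, SNHG5, SNHG12, SON, UTRN, WDR5 and the fibroblast, blood and trophoblast markers. Symbols, positions, promoters and microRNAs came from RefSeq tables of GRCh38.p14. Alternatives were other scalings, DESeq2 1.42.0, other count filters, fewer libraries, a replicate block, a fold threshold, a gene length trend, and each library left out.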

Additional observations from a re-analysis of the deposited data

How the results depend on the processing

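Of the counts of called genes, DESeq2 gave 3158 (1606 higher, 1552 lower; 46 and 7 at 2-fold or more) and 2982 for BIX against VXN. A fold threshold of 1.2 gave 664 (548 and 116; 86 and 17 at 2-fold or more) and 931 for BIX against VXN. At 2-fold or more a minimum count of 50 gave 80 higher and 14 lower, fitting only the 4 libraries compared gave 22 lower, and removing the gene length trend gave 128 higher. The cause was not tested, except that the threshold asks for more and the stricter filter tests fewer genes. With a library left out 3871 to 4085 genes were called, 1710 to 1890 higher and 2089 to 2195 lower, 149 to 184 and 36 to 52 at 2-fold or more, and 3878 to 4958 for BIX against VXN. Size factors of the DESeq2 type turned the balance to 2669 higher and 2457 lower, 52.1% higher beside 47.2%. Counts by gene class, length and chromosome kept within 1.5 times under the scalings and the stricter filter tried. ROBO1 reversed to -0.0233 with the length trend removed. Replicate numbers did not pair the samples (correlation of deviations -0.0318 between BIX and DMSO), and the replicate block gave 5101 calls, and 5002 for BIX against VXN. Depth limits genes near the floor of 0.141 to 0.220 CPM, where a change was not detectable.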
